A study of Mus musculus with 12 samples.

Results

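The BCL2 family decides whether a lymphocyte lives or dies by apoptosis, and 10 of its genes are described here in mouse spleen, in B cells at rest and in naive CD4+ T cells. They are Bcl2, Bcl2l1, Mcl1, Bcl2a1b, Bax, Bak1, Bcl2l11, Bid, Bad and Bbc3, picked by gene name from a table of 41128 genes. Each name had 1 row, and all 10 passed the filter on low values that left 12520 genes for testing. The data are 12 RNA sequencing libraries of splenic cells, from C57BL/6J mice at 6 to 8 weeks of age, in 4 groups of 3: CD43- B cells from females, CD43- B cells from males, naive CD4+ CD62L+ T cells from females and the same T cells from males. The labels name no transgene, deletion or treatment for any group. The T cells were sorted for high CD62L, low CD44 and absence of CD25, and the replicates are described as pooled animals, so error bars and p-values reflect differences among pools, not among single mice.

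Members of the family share short BCL2 homology (BH) segments and act at the outer membrane of the mitochondrion. Pro-survival proteins (BCL2, BCL-XL from Bcl2l1, MCL1 and A1 from the Bcl2a1 genes) hold in check the effectors BAX and BAK, which otherwise open pores that release cytochrome c. BH3-only proteins (BIM from Bcl2l11, BID, BAD and PUMA from Bbc3) use the BH3 segment to occupy the groove of the pro-survival proteins or to activate the effectors. In lymphocytes, BCL2 and MCL1 are known to keep resting cells alive, and loss of BIM is known to let lymphocytes accumulate.

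The stretch that gives the BH3-only class its name is shown first, because it is the part through which the killers and the survivors meet. The lines below are coding bases from GENCODE M21 transcripts (build GRCm38), 36 bases each, 5′ to 3′ on the strand of the gene. Capitals mark the 6 codons of the core, which run from a leucine codon to an aspartate codon with a glycine, alanine or serine codon before the last.
Bcl2: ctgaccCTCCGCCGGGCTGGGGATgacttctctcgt
Bcl2l1: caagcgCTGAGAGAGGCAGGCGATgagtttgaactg
Mcl1: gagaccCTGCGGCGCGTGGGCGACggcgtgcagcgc
Bax: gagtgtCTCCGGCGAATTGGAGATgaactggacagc
Bak1: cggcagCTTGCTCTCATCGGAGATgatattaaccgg
Bcl2l11: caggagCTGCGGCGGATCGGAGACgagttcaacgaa
Bid: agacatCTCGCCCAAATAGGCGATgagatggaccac
Bad: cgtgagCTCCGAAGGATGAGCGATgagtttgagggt
Bbc3: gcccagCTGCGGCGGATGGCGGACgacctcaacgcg

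The pattern searched was leucine, 3 residues of any kind, a small residue (glycine, alanine or serine), aspartate and then an acidic residue, lysine or glycine. It occurred once in 9 of the 10 members, not in Bcl2a1b, and in 10.7% of the 21741 coding genes searched, so it is a loose pattern and a match is a description only. It lay in pro-survival, effector and BH3-only members. The pro-survival stretches lie at chr1:106712572-106712607 (Bcl2, minus strand, exon 1 of 2), chr2:152829694-152829729 (Bcl2l1, minus strand, exon 2 of 3) and chr3:95659430-95659465 (Mcl1, plus strand, exon 1 of 3). The effector stretches lie at chr7:45465994-45466029 (Bax, minus strand, exon 3 of 6) and chr17:27022528-27022563 (Bak1, minus strand, exon 4 of 6). The BH3-only stretches lie at chr2:128147144-128147179 (Bcl2l11, plus strand, exon 3 of 4), chr6:120897286-120897321 (Bid, minus strand, exon 4 of 6), chr19:6950786-6950821 (Bad, plus strand, exon 3 of 4) and chr7:16313767-16313802 (Bbc3, plus strand, exon 3 of 4).

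Values are adjusted TPM. TPM is a length-corrected share of transcripts, and the way the authors adjusted it is not given in the sources used here. Levels of different genes are set side by side on the assumption that the adjustment rescaled whole libraries. The sequencing depth is unknown and precision is limited to what the deposited lower and upper bounds show. The library totals ran from 561020 to 1453940, and in 1 library the noncoding RNA Yam1 alone took 37.4% of the total. The 5 B cell markers summed to between 2610 and 2972 in B cells and to at most 5.34 in T cells, and the 5 T cell markers to between 1017 and 1194 in T cells and to at most 14.1 in B cells. Of the 5 neutrophil markers, 4 stayed under 1 in every B cell library and 3 in every T cell library. The 4 monocyte markers in the table summed to between 10.3 and 14.3 in B cells and between 2.62 and 5.76 in T cells, and the 4 erythroid markers to between 0.965 and 199 and between 2.54 and 44.0. Their part in the members' values was not tested.

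The female and the male T cell library numbered 6 stood apart from the rest before any comparison of members. The regulatory T cell markers Foxp3, Ikzf2 and Ctla4 summed to 29.2 and 24.5 there, against 3.08 to 4.95 in the other 4 T cell libraries and at most 0.372 in B cells. Il2ra, which encodes the CD25 that the sort was meant to exclude, stood at 4.999 and 4.11 against at most 0.34 in the other 4. A list of 8 dissociation stress genes was lower there, at 230 and 181 against 406 to 540. Each comparison of B with T cells was therefore also made without these libraries.

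Across the family, 8 of the 10 members differed between B and T cells, 4 in each direction, and 73.0% of all tested genes did. In B cells, Mcl1, Bcl2a1b, Bak1 and Bid were higher, which is 4 of 10 against 31.4% of all genes. In T cells, Bcl2, Bcl2l1, Bcl2l11 and Bbc3 were higher, which is 4 of 10 against 41.6%. The share of members called is near the background, so it is the direction and size of single members that the text turns to. The median log2 fold change of the members (B minus T cells, on the log2(adjusted TPM + 1) scale) was 0.07, against -0.09 for all tested genes. Bcl2l1, Bcl2a1b, Bid and Bbc3 changed by at least 1 on that scale, 4 of 10 against 21.6% of all genes. For 8 of 10 members the 6 B cell libraries did not overlap the 6 T cell libraries, against 53.9% of all genes. The fit behind the calls treated the 6 T cell libraries as independent, although same-numbered female and male ones deviated together, as described below. Averaging same-numbered libraries left 8 members past the threshold. In bulk samples, fewer cells of a type that uses a gene and less of its RNA per cell cannot be told apart.

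**Figure D1:**
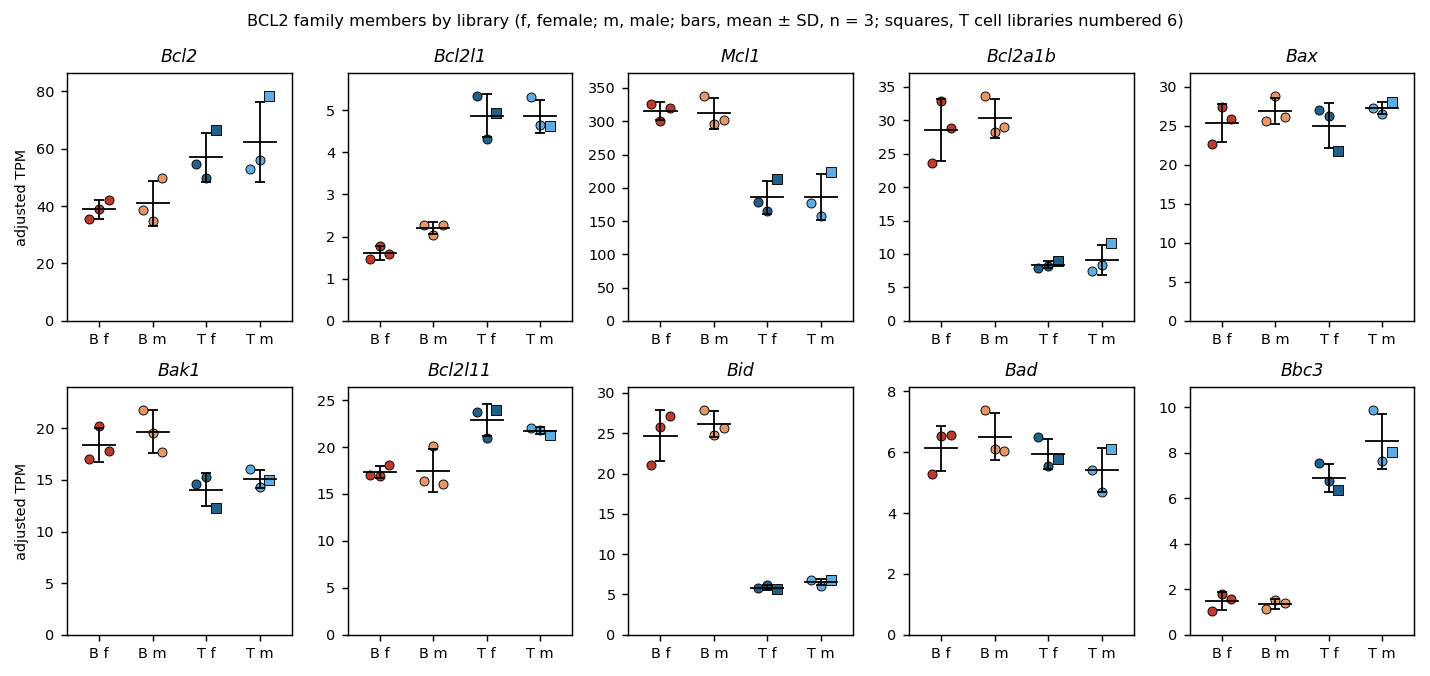
Adjusted TPM (vertical axes, from 0) of the 10 members in each library, by group on the horizontal axes, with the mean and SD over 3 libraries. Bid sits at 21.1 or more in every B cell library and at 6.83 or less in every T cell library, Bbc3 shows the opposite order, and Bax and Bad overlap between the cell types.

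Mcl1, the short-lived pro-survival protein that lymphocytes must keep making, had the highest level of all members in both cell types and was higher in B cells. In female B cells Mcl1 was measured at 327, 299.7 and 319.6, and in male B cells at 338, 295 and 301. In female T cells Mcl1 stood at 179, 165 and 213, and in male T cells at 178, 157 and 224. Every B cell library lay above every T cell library. The means were 313 ± 17.3 (SD, n = 6) and 186 ± 26.6 (SD, n = 6), a ratio of 1.69, and the log2 fold change was 0.76 with a standard error (SE) of 0.09 (limma adjusted p = 8.8e-06). By mean level Mcl1 ranked 202nd in B cells and 331st in T cells among the 12520 tested genes.

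Bcl2, the founding survival gene of the family, went the other way. Its values were 35.6, 38.9 and 42.2 in female B cells and 38.6, 34.7 and 49.7 in male B cells. In T cells Bcl2 was at 54.7, 49.8 and 66.4 in females and at 52.9, 56.0 and 78.5 in males. The cell types did not overlap, but the highest B cell library (49.7) lay just under the lowest T cell library (49.8). The deposited intervals of B and T cell libraries were apart in 35 of 36 pairs. Means were 39.9 ± 5.46 for B cells and 59.7 ± 10.8 for T cells (SD, n = 6 each), and Bcl2 was lower in B cells by a log2 fold change of -0.56 (SE 0.12, limma adjusted p = 0.00077). Within groups, Bcl2 had an SD of 0.23 on the log2(adjusted TPM + 1) scale, wider than for 88.4% of tested genes. The B cell library with most Bcl2, male 3, also had the lowest sum of 5 germinal centre markers (5.60, in a B cell range up to 21.2) and of 4 cell cycle genes (22.1, in a range up to 48.2). Whether these cells have a part in the Bcl2 level was not tested. With all libraries set to the same total, Bcl2 no longer passed the threshold (-0.19, limma adjusted p = 0.43), as described below.

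Bcl2l1, which encodes BCL-XL, a pro-survival protein known for its low level in resting lymphocytes, was the lowest survival member in both cell types and was higher in T cells. It was measured at 1.46, 1.79 and 1.58 in female B cells and at 2.28, 2.03 and 2.28 in male B cells. T cells gave 5.35, 4.33 and 4.93 in females and 5.31, 4.64 and 4.63 in males. No B cell library reached a T cell library. The T cell mean of 4.86 ± 0.41 (SD, n = 6) was 2.56 times the B cell mean of 1.90 ± 0.35 (SD, n = 6), with a log2 fold change of -1.02 (SE 0.07, limma adjusted p = 1.6e-08), which the pseudocount of 1 understates at this level.

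Bcl2a1b is 1 of the 4 copies of Bcl2a1 in the table; the gene encodes A1, a pro-survival protein that NF-kB is known to induce. It was at 23.7, 32.9 and 28.9 in female B cells and at 33.7, 28.3 and 29.0 in male B cells. In T cells it was at 7.95, 8.23 and 8.94 in females and at 7.47, 8.28 and 11.7 in males. All B cell libraries lay at more than 20 and all T cell libraries at less than 12. The B cell mean of 29.4 ± 3.61 (SD, n = 6) was 3.36 times the T cell mean of 8.76 ± 1.51 (SD, n = 6), and the log2 fold change was 1.64 (SE 0.10, limma adjusted p = 1.3e-08).

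The copies are near-identical, and the way reads were shared among them is not given in the sources used here, so the value of a single copy is uncertain. Between Bcl2a1b and Bcl2a1d, 6 of 516 coding bases differ (98.8% identity, with 217 bases in a row the same), and between Bcl2a1b and Bcl2a1a 11 differ (97.9%). Their first 60 coding bases hold 6 of the 12 positions at which the 3 copies are not all the same, marked by capitals in the lines below (GENCODE M21, GRCm38). Only the first and the last marked base tell a Bcl2a1b read from a Bcl2a1d read, and the others set Bcl2a1a apart from both.
Bcl2a1b: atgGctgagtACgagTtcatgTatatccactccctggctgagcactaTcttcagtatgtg
Bcl2a1d: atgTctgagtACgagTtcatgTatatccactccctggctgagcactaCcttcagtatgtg
Bcl2a1a: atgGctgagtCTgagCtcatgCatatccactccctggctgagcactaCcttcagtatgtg

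They lie in exon 1 of 2 at chr9:89199360-89199419 (Bcl2a1b, plus strand), chr9:88731660-88731719 (Bcl2a1d, minus strand) and chr9:88957051-88957110 (Bcl2a1a, plus strand). Bcl2a1d was at 12.4 ± 2.46 in B cells and at 1.93 ± 0.40 in T cells (SD, n = 6 each). Bcl2a1a was at 1.27 ± 0.25 and 0.14 ± 0.13 (SD, n = 6 each), and Bcl2a1c at no more than 0.13 in any library. Summed over the 4 copies, Bcl2a1 was at 43.1 ± 5.90 in B cells and 10.8 ± 1.75 in T cells (SD, n = 6 each), a log2 fold change of 1.90 (SE 0.11, limma adjusted p = 3.9e-09).

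The effectors were closer to each other and to equality. Bax ran from 22.7 to 28.9 in B cells and from 21.7 to 28.1 in T cells, with means of 26.1 ± 2.06 and 26.2 ± 2.26 (SD, n = 6 each). The libraries of both cell types overlapped, and the log2 fold change of 0.00 had a 95% confidence interval from -0.15 to 0.14 (limma adjusted p = 0.99). Bak1 ran from 17.0 to 21.8 in B cells and from 12.3 to 16.0 in T cells without overlap. It was higher in B cells by a log2 fold change of 0.36 (SE 0.07, limma adjusted p = 0.00061). Its deposited intervals in B and T cell libraries were apart in 30 of 36 pairs. Bax exceeded Bak1 in every library, 1.38 ± 0.12 times in B cells and 1.80 ± 0.08 times in T cells (SD, n = 6 each), and these ratios did not overlap. A ratio of 2 genes within a library shows unequal change, and not which of the genes differed.

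Among the BH3-only members, Bid and Bbc3 differed widely and in opposite directions, Bcl2l11 differed by little and Bad did not pass the threshold. Bid, which caspase-8 cleaves to link death receptors to mitochondria, was at 21.1, 25.8 and 27.1 in female B cells and at 27.9, 24.8 and 25.6 in male B cells. In T cells it was at 5.76, 6.18 and 5.63 in females and at 6.83, 6.11 and 6.75 in males. The lowest B cell library held more than 3 times the Bid of the highest T cell library. Bid was higher in B cells by a log2 fold change of 1.87 (SE 0.07, limma adjusted p = 3.0e-11), with means of 25.4 ± 2.38 and 6.21 ± 0.50 (SD, n = 6 each), a ratio of 4.09.

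Bbc3, which encodes PUMA, a BH3-only protein that p53 and FOXO factors are known to induce, had the opposite pattern. It was measured at 1.03, 1.81 and 1.58 in female B cells and at 1.13, 1.54 and 1.39 in male B cells. T cells had 7.54, 6.77 and 6.35 in females and 9.89, 7.64 and 8.01 in males. All T cell libraries lay above 6 and no B cell library reached 2. The T cell mean of 7.70 ± 1.24 was 5.45 times the B cell mean of 1.41 ± 0.29 (SD, n = 6 each), and the log2 fold change was -1.85 (SE 0.09, limma adjusted p = 1.3e-09). The deposited bounds of Bbc3 were wide, with a median width of 35.1% of the value, yet the intervals of B and T cell libraries were apart in 36 of 36 pairs.

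Bcl2l11, which encodes BIM, the main killer of surplus lymphocytes, ran from 16.0 to 20.1 in B cells and from 20.9 to 24.0 in T cells. The libraries did not overlap in these values, but the deposited intervals were apart in only 32 of 36 pairs. The difference was small, a log2 fold change of -0.34 (SE 0.06, limma adjusted p = 0.00032), with means of 17.4 ± 1.495 and 22.3 ± 1.26 (SD, n = 6 each). Bad, whose protein is held inactive by phosphorylation under growth factor signals, ran from 5.28 to 7.40 in B cells and from 4.70 to 6.50 in T cells. These ranges overlapped, and the log2 fold change of 0.13 (SE 0.08) did not pass the threshold (limma adjusted p = 0.16, 95% confidence interval -0.04 to 0.31).

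How far these differences rest on the scaling between libraries was read from the median of all tested genes, which lay at -0.09 as deposited, at -0.01 after median-ratio scaling and at 0.25 after setting every library to the same total. Of all calls, 43.0% were higher in B cells as deposited, 50.1% after median-ratio scaling and 70.8% with equal totals. With equal totals Bcl2l11 changed sign (0.02, limma adjusted p = 0.92), Bcl2 no longer passed the threshold and Bad did (0.47, limma adjusted p = 0.025). Bad also passed after median-ratio scaling (0.21, limma adjusted p = 0.024). Taken relative to the median of all genes, the values moved less: Bcl2 lay at -0.47, -0.46 and -0.44 under the 3 scalings, Bcl2l11 at -0.25, -0.24 and -0.23 and Bad at 0.22 each time. Mcl1, Bcl2a1b, Bak1, Bid, Bcl2l1 and Bbc3 kept their direction and stayed past the threshold under all 3.

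**Figure D2:**
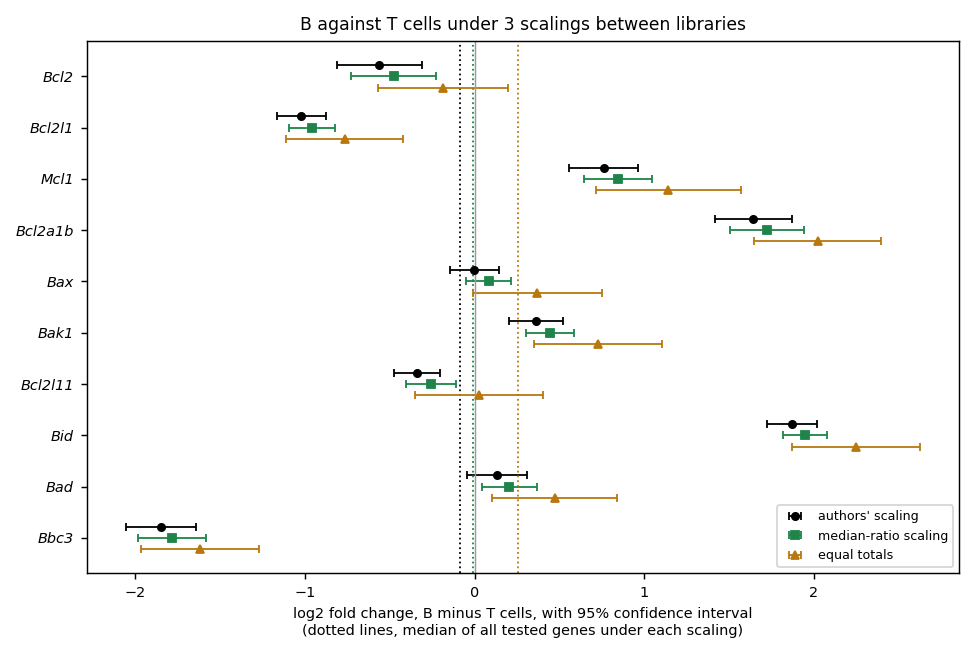
Log2 fold change of B minus T cells with 95% confidence intervals (horizontal axis) for the 10 members (rows) under 3 scalings between libraries, with a dotted line at the median of all tested genes for each scaling. Intervals are widest with equal totals, where those of Bcl2, Bax and Bcl2l11 include 0.

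Since a ratio within a library is free of any scaling of the whole library, the make-up of each role was also compared. Mcl1 made up 81.5% ± 1.85 (SD, n = 6) of the summed pro-survival members in B cells and 71.7% ± 1.49 in T cells. Bcl2 took 10.4% ± 1.42 and 23.0% ± 1.39, Bcl2a1b 7.65% ± 0.91 and 3.38% ± 0.30, and Bcl2l1 0.49% ± 0.09 and 1.91% ± 0.29. None of these 4 shares overlapped between the cell types. For each unit of Bcl2 there were 7.97 ± 1.12 units of Mcl1 in B cells and 3.14 ± 0.25 in T cells (SD, n = 6 each).

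Among the BH3-only members, Bid was the main part in B cells and Bcl2l11 in T cells. Bid took 50.2% ± 2.35 of their sum in B cells and 14.8% ± 1.18 in T cells. Bcl2l11 took 34.5% ± 3.05 and 53.3% ± 2.79, and Bbc3 2.78% ± 0.50 and 18.3% ± 2.42. The share of Bad overlapped, at 12.5% ± 0.85 and 13.6% ± 1.29 (SD, n = 6 each). The ratio of Bid to Bbc3 ran from 14.3 to 24.8 in B cells and from 0.691 to 0.913 in T cells. The summed pro-survival members stood at 7.64 ± 0.64 times the summed BH3-only members in B cells and at 6.19 ± 0.87 times in T cells (SD, n = 6 each), with ranges of 6.85 to 8.71 and 5.51 to 7.55 that overlapped. This ratio depended on which genes were summed: with Bcl2l2, the other Bcl2a1 copies, Bmf and Pmaip1 added, which was done after their values were seen, it was 5.09 ± 0.29 in B cells and 5.90 ± 0.88 in T cells (SD, n = 6 each), so the order of the means turned, and the ranges of 4.67 to 5.52 and 5.17 to 7.33 again overlapped. These are transcript levels, and the amounts of protein were not measured.

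**Figure D3:**
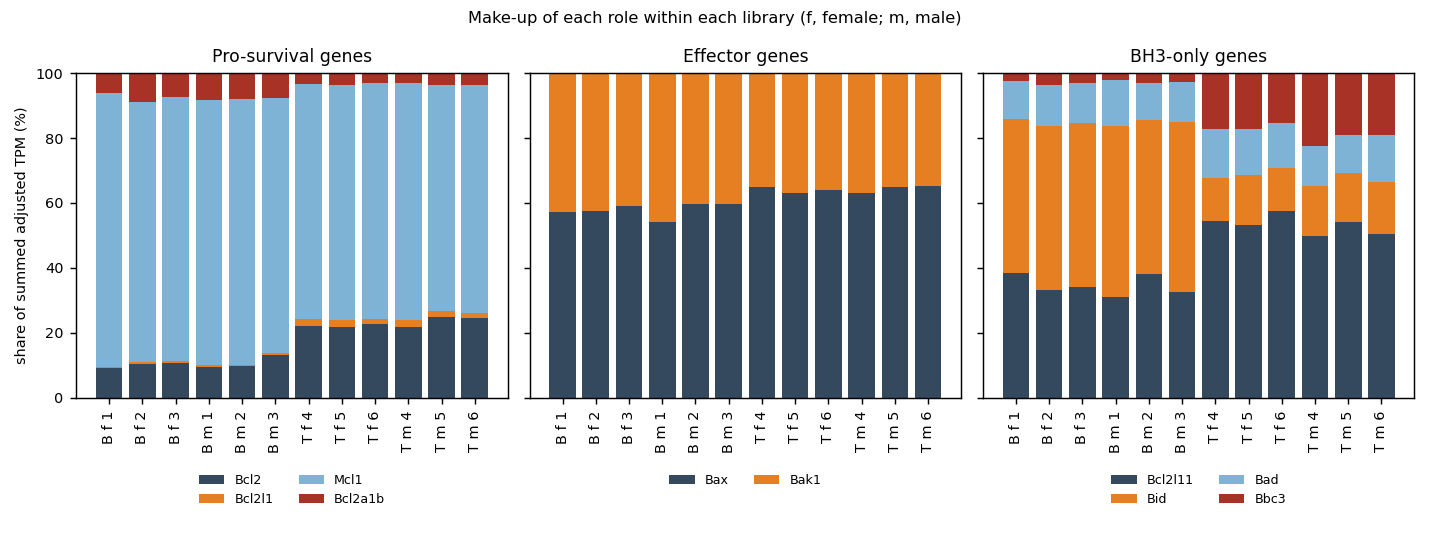
Share of each member in the summed adjusted TPM of its role (vertical axes, percent) in each of the 12 libraries (horizontal axes). The Bid part of the BH3-only bars shrinks from 50.2% on average in B cells to 14.8% in T cells, and the Bcl2 part of the pro-survival bars grows from 10.4% to 23.0%.

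By level, the order of the members was Mcl1, Bcl2, Bcl2a1b, Bax, Bid, Bak1, Bcl2l11, Bad, Bcl2l1 and Bbc3 in B cells. Neighbours from Bcl2a1b through Bcl2l11 overlapped in their ranges, as did Bcl2l1 and Bbc3. In T cells the order was Mcl1, Bcl2, Bax, Bcl2l11, Bak1, Bcl2a1b, Bbc3, Bid, Bad and Bcl2l1. There, Bax overlapped with Bcl2l11, and all neighbours from Bcl2a1b downward overlapped. The deposited bounds spanned a median of 3.47% of the value for Mcl1, 31.2% for Bcl2l1 and 28.8% for Bcl2a1b.

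In the T cell libraries numbered 6, Bcl2, Mcl1 and Bcl2a1b exceeded all other T cell libraries, and no member fell below them in both. This is 3 of 10 members above and 0 below, against 17.0% of all tested genes above and 18.6% below. Bcl2 was at 66.4 and 78.5 against 53.3 ± 2.69 (SD, n = 4) in the others, Mcl1 at 213 and 224 against 170 ± 10.5, and Bcl2a1b at 8.94 and 11.7 against 7.98 ± 0.37. The regulatory T cell markers described above were higher in the same libraries and the stress genes lower, and their part in these levels was not tested. Without both libraries, the log2 fold change of B against T cells was -0.42 for Bcl2 (limma adjusted p = 0.0028), 0.88 for Mcl1 (limma adjusted p = 1.3e-06) and 1.75 for Bcl2a1b (limma adjusted p = 4.5e-08), and all 8 members that had passed the threshold still passed it.

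**Figure D4:**
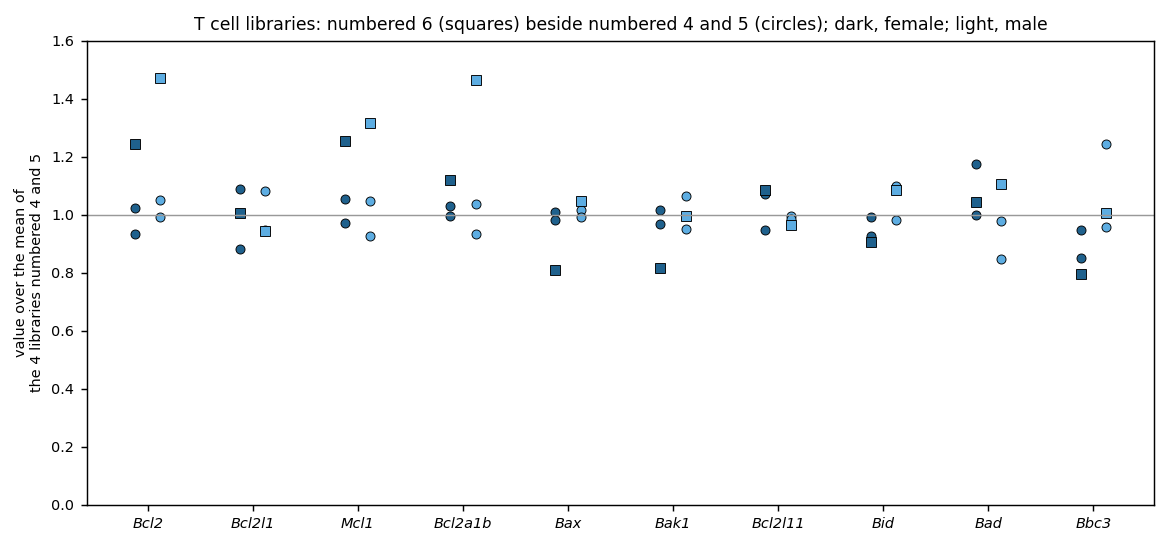
Level of each member in the 6 T cell libraries divided by the mean of the 4 libraries numbered 4 and 5 (vertical axis, from 0). For Bcl2, Mcl1 and Bcl2a1b both squares (libraries numbered 6) lie above every circle, and for the other 7 members they do not.

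The sexes were then set side by side in B cells and, separately, in T cells. By limma, no member passed the threshold in B cells (0.144% of all genes did, 18 of 12520), in T cells (0.104%, 13 genes) or for the difference between these sex effects (0% of all genes). At an unadjusted p under 0.05 there was 1 member in B cells, 0 in T cells and 1 for the difference, against 2.98%, 2.55% and 2.36% of all genes, and both times that member was Bcl2l1. Over the 10 members, the log2 differences (female minus male) ran from -0.29 to 0.06 in B cells and from -0.27 to 0.12 in T cells, and their 95% confidence intervals reached from -0.50 to 0.35 and from -0.56 to 0.37. These intervals are not a limit of detection. With 3 pools a group and the adjustment over 12520 genes, larger differences could also be missed. The interval of Bcl2l1 in B cells, from -0.50 to -0.09, left out 0 without a call. Bcl2l1 in B cells stood at 1.61 ± 0.17 in females and 2.19 ± 0.14 in males (SD, n = 3 each), with no overlap. Its log2 difference of -0.29 had an adjusted p of 0.92 by limma, and the deposited intervals of female and male libraries were apart in only 2 of 9 pairs. With no filter on low values the adjusted p became 0.021 by limma, in a fit that called 26.7% of all 41128 genes. The difference between the sex effects of B and T cells in Bcl2l1 was also -0.29, with an adjusted p that rounded to 1.0 by limma.

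Most of the other BCL2 family genes that were tested were higher in B cells. Of 16 other BCL2 family genes, 9 were tested, and 7 were higher in B cells, 1 was lower and 1 did not pass, against 31.4% higher and 41.6% lower over all genes. Their median log2 fold change was 0.99, against -0.09 for all tested genes. That median is the value of Bcl2a1a. The 7 higher genes include Bcl2a1a and Bcl2a1d, the near-identical copies of Bcl2a1b described above, so they are not separate from the Bcl2a1b result. Pmaip1, which encodes NOXA, the BH3-only partner of MCL1, was at 9.73 ± 1.24 in B cells and 0.60 ± 0.28 in T cells (SD, n = 6 each), a log2 fold change of 2.76 (SE 0.12, limma adjusted p = 1.9e-10). Bmf, another BH3-only gene, was at 18.6 ± 2.23 and 1.97 ± 0.68 (log2 fold change 2.75, SE 0.15). Bcl2l2, which encodes the pro-survival BCL-W, was at 3.22 ± 0.38 and 0.61 ± 0.15 (log2 fold change 1.39, SE 0.09). In T cells Bcl2l2 and Bcl2a1a stayed at or under 0.86 and 0.33, and Pmaip1 at or under 1.07 with a median of 0.48. Bcl2l2, Bcl2a1a and Pmaip1 thus passed the filter only through B cells and could only be called higher there. Each unit of Pmaip1 had 32.7 ± 4.84 units of Mcl1 in B cells and 348 ± 103 in T cells. The gene lower in B cells was Bnip3l (NIX), known for the removal of mitochondria, at 47.4 ± 4.89 and 80.9 ± 5.53 (SD, n = 6 each). The 7 genes that were not tested, Bcl2a1c, Bcl2l10, Bok, Bik, Hrk, Bcl2l14 and Bcl2l15, had means under 1 in both cell types.

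Downstream of the mitochondrion, where cytochrome c meets APAF1 to activate caspase-9, 14 of 18 tested genes differed, 10 higher and 4 lower in B cells. The total is near the 73.0% of all genes that differed. The split is not, as 31.4% of all genes were higher and 41.6% lower in B cells. The median log2 fold change of the list was 0.21, against -0.09 for all tested genes. Casp9 was at 10.7 ± 0.36 in B cells and 4.36 ± 0.29 in T cells (SD, n = 6 each), a log2 fold change of 1.13 (SE 0.06). Birc3 (cIAP2), an inhibitor of apoptosis known as an NF-kB target, was at 153 ± 14.8 and 48.9 ± 3.71, and Parp1, a DNA repair enzyme that caspases cleave, at 120 ± 6.76 and 32.5 ± 2.33. Birc5 (survivin), known for its role in cell division, was at 3.12 ± 1.23 and 0.40 ± 0.15. At 0.62 or less in every T cell library, Birc5 passed the filter only through B cells and could only be called higher there. The 4 cell cycle genes summed to between 22.1 and 48.2 in B cells and to between 3.47 and 5.47 in T cells, and their part in the Birc5 difference was not tested. No gene of the list was lower in B cells by 1 or more.

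In the death receptor route, which leads through caspase-8 to BID, 9 of 10 tested genes were lower in B cells and none was higher, against 41.6% and 31.4% of all genes. Tnfrsf1a, Fasl and Tnfrsf10b stayed at or under 0.31, 0.09 and 0.62 in B cells. They passed the filter only through T cells, so they could only be called lower in B cells. The list had a median log2 fold change of -0.96, against -0.09 for all tested genes. It mixes receptors, ligands and other parts of the route, including Cflar, so the count does not measure the activity of the route. Tnfrsf1a, which encodes the TNF receptor 1, was at 0.18 ± 0.08 in B cells and 13.4 ± 0.70 in T cells (SD, n = 6 each), a log2 fold change of -3.61 (SE 0.06, limma adjusted p = 2.9e-14). Fasl, the ligand of FAS, was at 0.06 ± 0.02 and 6.89 ± 1.01, Fas itself at 3.43 ± 0.87 and 15.4 ± 0.91, and Tnfsf10 (TRAIL) at 2.03 ± 0.12 and 9.30 ± 0.67. The gene that did not pass was Tradd, an adaptor of TNF receptor 1, at 12.8 ± 1.33 and 13.0 ± 0.49.

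Genes that control the family at the level of transcription, binding or decay were mixed. Of 18, 16 were tested, with 3 higher and 6 lower in B cells and a median of -0.12, and 9 of 16 called is below the 73.0% of all genes. Bcl6, a repressor that marks germinal centre B cells and is also made in resting B cells, was at 28.5 ± 5.39 in B cells and 6.46 ± 0.49 in T cells (SD, n = 6 each), a log2 fold change of 1.97 (SE 0.11, limma adjusted p = 4.6e-09), and no gene of the list was lower by 1 or more. Of 14 targets of p53, 10 were tested, with 1 higher and 4 lower in B cells, none by 1 or more, and a median of -0.10, again a smaller share than the 73.0% of all genes. Without both T cell libraries numbered 6, 3 of these genes passed in place of 5. Bbc3, itself such a target, was left out of that list as a member.

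**Figure D5:**
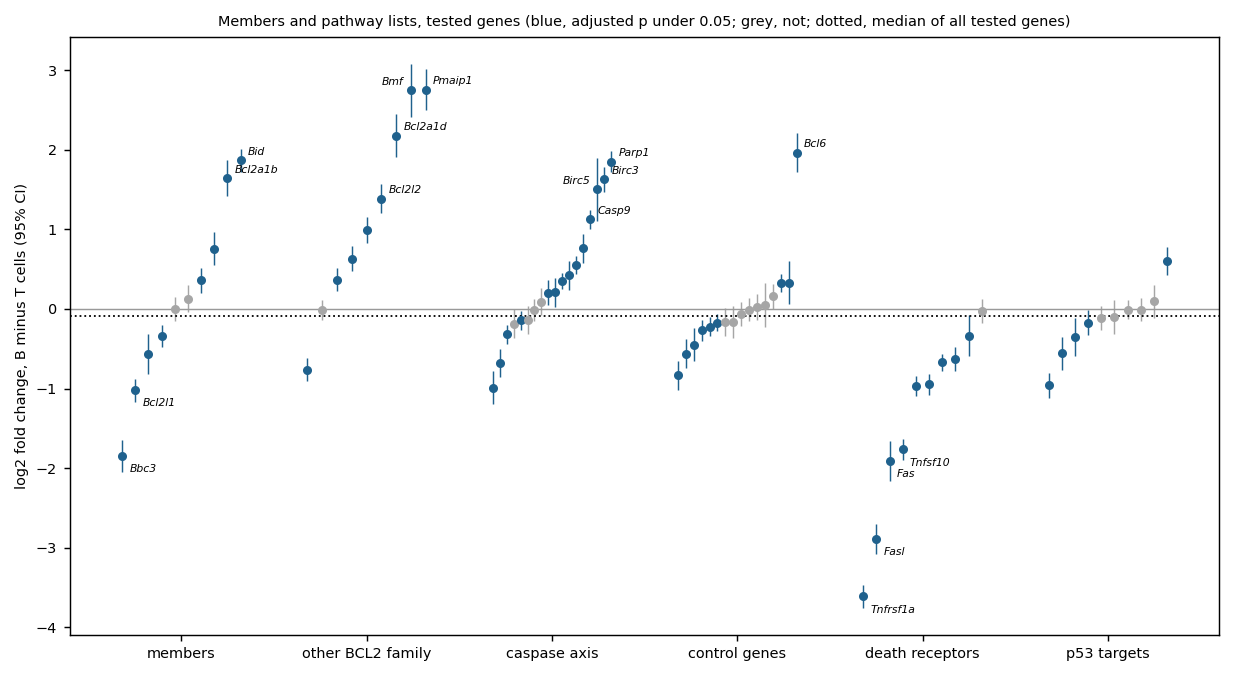
Log2 fold change of B minus T cells with 95% confidence intervals (vertical axis) for the tested genes of each list (columns), with genes that passed the threshold in blue and the names of those that changed by at least 1. The death receptor column reaches down to -3.61 for Tnfrsf1a, and the column of other BCL2 family genes reaches up to 2.76 for Pmaip1.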

How the data were processed

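RNA was freed of ribosomal RNA and sequenced with a strand-specific kit. The processing notes of the submitters name Trim Galore, FastQC, STAR and mm10, without versions. The table deposited by the authors holds a signal, the adjusted TPM, with a lower and an upper bound. It was taken to be TPM rescaled between libraries. The quantifier, the adjustment and the level of these bounds are not given in the sources used here. Totals differ between libraries, no value is 0, and some label fields call the material genomic DNA although the series describes RNA.

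Groups came from the labels. log2(adjusted TPM + 1) was tested with limma 3.58.1 (R 4.3.3), each group having its own coefficient in a single fit with a mean-variance trend to all 12 libraries, on the 12520 genes with a value of at least 1 in at least 3 libraries. The threshold was a Benjamini-Hochberg adjusted p under 0.05 over all tested genes. This procedure was tested on simulated data with independent noise in each library, which did not cover the pairing of T cell libraries described below. The pseudocount of 1 understates changes of low genes. Levels, shares and ratios have no test. Tables were made with Python 3.11.15, pandas 2.3.3 and Biopython 1.88. Gene identifiers matched GENCODE M21 (GRCm38, the build of mm10) for 40254 of 41128 rows (97.9%).

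Same-numbered female and male T cell libraries deviated together from their group means (correlations over genes of 0.72, 0.55 and 0.52), so the numbers pair them, although the labels do not say what a number marks. In B cells the correlations were -0.17, -0.04 and -0.34, so only a number is shared there. Members and gene lists were chosen with earlier results of these data known. All members are named. From the lists of related genes, those past the threshold with a log2 fold change of at least 1 in size are named, up to 4 a direction, with other names given only to account for a count.

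Alternatives were another pseudocount (0.1), no filter, 3 other normalizations, no trend, the deposited bounds as values, each library left out, single sexes, a fold threshold, single cell types, a replicate block and a sum over the Bcl2a1 copies. The omission of both T cell libraries numbered 6 and the averaging of same-numbered libraries were added after the data were seen.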

Additional observations from a re-analysis of the deposited data

Results flagged for a closer look

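Over the 6 libraries of each cell type, 2 of the 20 sets of member values held a library far from the others by Dixon's ratio, and chance alone flags about 1 in 20. Bcl2a1b in the male T cell library numbered 6 was at 11.7, against 7.47 to 8.94 in the other T cell libraries. Bax in the female T cell library numbered 6 was at 21.7, against 26.3 to 28.1. Both are libraries with the higher regulatory T cell markers, and the part of those markers in these values was not tested. For no member did limma find a difference between the sex effects of B and T cells.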

How the results depend on the processing

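The count of 8 members that differed between B and T cells stayed within 1.5 times under every alternative except a fold threshold, and it was 8 with each library left out in turn (4 higher and 4 lower in B cells each time). With a log2 fold change of at least 1 also required, 4 members passed, 2 higher and 2 lower in B cells; of the lists, 4 other family genes, 4 caspase axis genes, 1 control gene, 4 death receptor genes and 0 targets of p53 did. With equal totals, 2 members were lower in B cells and passed, as did 5 control genes and 3 targets of p53; there Bcl2 weakened to -0.19 and Bcl2l11 reversed to 0.025. The construction of that alternative lets Yam1, up to 37.4% of a library, set the scale. Of the targets of p53, 3 passed without both T cell libraries numbered 6 and 3 in male libraries only; the cause was not tested. With each library left out, the calls ran from 8 to 8 for other family genes, 11 to 14 for the caspase axis, 8 to 10 for control genes, 8 to 9 for death receptors and 4 to 6 for targets of p53. Bax, which was never past the threshold, changed sign under equal totals (0.37), median-ratio scaling (0.083), quantile normalization (0.025), the upper bounds (0.00099) and in female libraries only (0.020), and with single libraries left out it ran from -0.048 to 0.036. For females against males, 1 member (Bcl2l1 in B cells) passed with no filter on low values, in a fit that called 26.7% of all 41128 genes. With the replicate number as a block, 0 members passed in each sex contrast and 0 for their difference, and over all genes 14, 10 and 0 passed. Averaging same-numbered libraries left 8 members past the threshold, the highest adjusted p among them being 0.0060 by limma. The depth is unknown, so the limit it sets on Bcl2l1 and Bbc3, the members with the lowest levels in B cells, is seen only through their wide deposited bounds.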

Other observations

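Among the 12 libraries, the within-group SD of log2(adjusted TPM + 1) was highest among members for Bcl2 (0.23) and Bcl2a1b (0.21), against a median of 0.13 over all tested genes. This scale shrinks the spread of low genes such as Bcl2l1, whose coefficient of variation was 18.4% in B cells and 8.35% in T cells. Mcl1 varied little in B cells, with a coefficient of variation of 5.51%, and more in T cells, with 14.3%; without the T cell libraries numbered 6 the T cell SD was 10.5 on a mean of 170. These are values from 6 libraries a cell type and were not compared by a test.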
